A study of Mus musculus with 12 samples.

Results

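Respiratory complex I, the NADH:ubiquinone oxidoreductase of the mitochondrial inner membrane, was followed at the level of its nuclear-encoded subunit mRNAs. The genes were taken by symbol: every gene named Nduf followed by a, b, c, s or v and a number, in probe sets that name 1 gene, which gave 35 genes of the 18194 tested. Each gene was read with the probe set of highest mean over the 12 arrays. Complex I takes electrons from NADH at the tip of its matrix arm, passes them along a chain of iron-sulphur clusters to ubiquinone, and uses the energy released to pump protons through its membrane arm. Its catalytic core is shared with bacteria and is encoded partly in the nucleus and partly in mitochondrial DNA, and a shell of accessory subunits surrounds it. Skeletal muscle uses it as the main entry of electrons into the respiratory chain, and PGC-1alpha, the protein of Ppargc1a, is a coactivator known to raise the transcription of many of these genes.

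The muscle was the gastrocnemius, a calf muscle of mixed but mainly fast fibres. RNA was measured on 12 Affymetrix mouse arrays in 4 groups of 3: knock-out mice at 24 months, knock-out mice at 10 weeks, wild-type mice at 24 months and wild-type mice at 10 weeks. The knock-out removes Ppargc1a in muscle through a cre recombinase driven by the myogenin promoter, which acts in differentiating muscle fibres, so other cells of the tissue keep the gene. All 4 groups are labelled with the same mixed background, C57Bl/6N/6J/129. The labels name neither sex, litter nor batch, and nothing in them states that each array was a different animal, so p-values here measure only how far these samples spread, and that spread may be technical. The number of arrays limits the precision throughout.

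"Old" and "young" below mean 24 months and 10 weeks, and "knock-out" means the arrays labelled so. Ppargc1a was not lower in the knock-out arrays on any of its 5 probe sets. The brightest probe set read 12.1, 11.8 and 12.3 in old knock-out muscle against 12.1, 11.8 and 11.5 in old wild-type muscle, and 11.1, 11.5 and 12.1 in young knock-out muscle against 10.8, 11.2 and 11.2 in young wild-type muscle, on the log2 scale. The place of these probe sets relative to the deleted part is not given in the sources used here, so this reading does not check the labels. The 12 skeletal muscle markers were bright on all arrays, with Acta1 at 15.93 to 15.95 and Ckm at 15.82 to 15.89, close to the highest signals measured, so they check the tissue and little else. Their summed level, the mean over the list of log2 signal minus the young wild-type mean, was -0.068 to -0.018 in old knock-out muscle against -0.003 to 0.004 in old wild-type muscle, and Mb, the myoglobin gene, differed by -0.29 ± 0.10 (limma adjusted p = 0.149). Arrays of one group correlated at 0.988 to 0.997 over genes. The array called old knock-out 1 stood apart from the other arrays of its group, and calls are given with and without it below. The mean of the 18S ribosomal RNA control probe sets was lower in the old arrays of both genotypes: it was 11.7 to 12.8 in old knock-out, 13.2 to 14.2 in young knock-out, 11.7 to 12.3 in old wild-type and 13.8 to 13.9 in young wild-type muscle. The 5′ minus 3′ control signal of Actb, a reading of RNA quality, was -0.109 to 0.0505 in old knock-out, -0.257 to -0.157 in young knock-out, -0.14 to -0.112 in old wild-type and -0.334 to -0.231 in young wild-type muscle. For Gapdh it was -0.0423 to 0.0183, -0.235 to -0.0846, -0.0433 to -0.0129 and -0.236 to -0.155 in the same order. Both controls were thus higher in the old arrays of each genotype. In old muscle Actb was also higher in every knock-out array than in every wild-type array, by a narrow margin, while Gapdh overlapped. The part of these controls in the differences below was not tested.

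The members include 6 nuclear core subunits. Signals were high: 32 of the 35 genes had a mean above log2 12, where the highest value on any array was about 16. Of the 35, 34 lay above the median signal of all probe sets, log2 6.22. The exception was Ndufb4, whose only probe set naming 1 gene averaged 4.61, so its differences below are those of a signal near background. Ndufa4 and Ndufa4l2 carry a complex I name by history. Ndufa4 is now known as a subunit of cytochrome c oxidase, and Ndufa4l2 is its hypoxia-induced paralogue.

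Proximal promoters are shown for the 3 members with the smallest p in the comparison of old knock-out with old wild-type muscle, since their transcripts differed most clearly between genotypes. Each is the RefSeq window on GRCm38.p6 from 250 bases before to 50 bases after the start of the gene, 5′ to 3′ in the direction of transcription, with motif matches in capitals. The windows are chr2:36049289-36049588 for Ndufa8, chr19:4012706-4013005 for Ndufv1 and chr6:126849095-126849394 for Ndufa9, all on the minus strand.
Ndufa8: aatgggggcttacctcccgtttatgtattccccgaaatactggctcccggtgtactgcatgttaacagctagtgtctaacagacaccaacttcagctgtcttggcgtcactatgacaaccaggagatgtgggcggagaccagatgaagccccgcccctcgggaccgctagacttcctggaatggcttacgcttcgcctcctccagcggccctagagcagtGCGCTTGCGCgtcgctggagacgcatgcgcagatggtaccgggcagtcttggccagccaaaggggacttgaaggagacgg
Ndufv1: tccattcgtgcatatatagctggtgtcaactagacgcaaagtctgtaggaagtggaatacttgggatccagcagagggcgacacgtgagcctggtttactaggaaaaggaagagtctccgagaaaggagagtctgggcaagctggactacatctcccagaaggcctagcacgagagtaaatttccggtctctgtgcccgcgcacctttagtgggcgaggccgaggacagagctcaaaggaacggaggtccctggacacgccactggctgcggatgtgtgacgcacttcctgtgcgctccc
Ndufa9: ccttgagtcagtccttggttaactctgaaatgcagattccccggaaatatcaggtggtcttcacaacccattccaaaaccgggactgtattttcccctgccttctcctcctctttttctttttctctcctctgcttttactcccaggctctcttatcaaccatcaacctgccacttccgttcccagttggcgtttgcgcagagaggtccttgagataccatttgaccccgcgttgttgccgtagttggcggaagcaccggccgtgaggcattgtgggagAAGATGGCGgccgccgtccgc
The capitals mark an NRF1 element in Ndufa8, read from the opposite strand with its first base 30 bases before the start, and a YY1 element in Ndufa9 that begins at base 30 counted from 1 at the start. The Ndufv1 window held no match. Windows on both strands were searched for 4 motifs of factors known to work with PGC-1alpha, and no matches overlapped within a window. The NRF1 element, GCGCA followed by any base and then GCGC, was in the windows of 5 of 31 members (Ndufa5, Ndufa6, Ndufa8, Ndufb4 and Ndufs5), or 16.1%, against 5.19% of the 27025 genes with a window. AAGATGGCG, the YY1 element, was in 4 members (Ndufa9, Ndufc1, Ndufs4 and Ndufs7), 12.9% against 1.64%. ACCGGAAG, the GABP element, was in 3 members (Ndufb6, Ndufs3 and Ndufs8), 9.68% against 2.6%. TNAAGGTCA, the estrogen-related receptor element, was in 1 member (Ndufb4), 3.23% against 1.43%. Together 12 of 31 members, 38.7%, held at least 1 of the 4, against 10.2% of genes. A match describes these letters and is not a shown binding site.

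**Figure D1:**
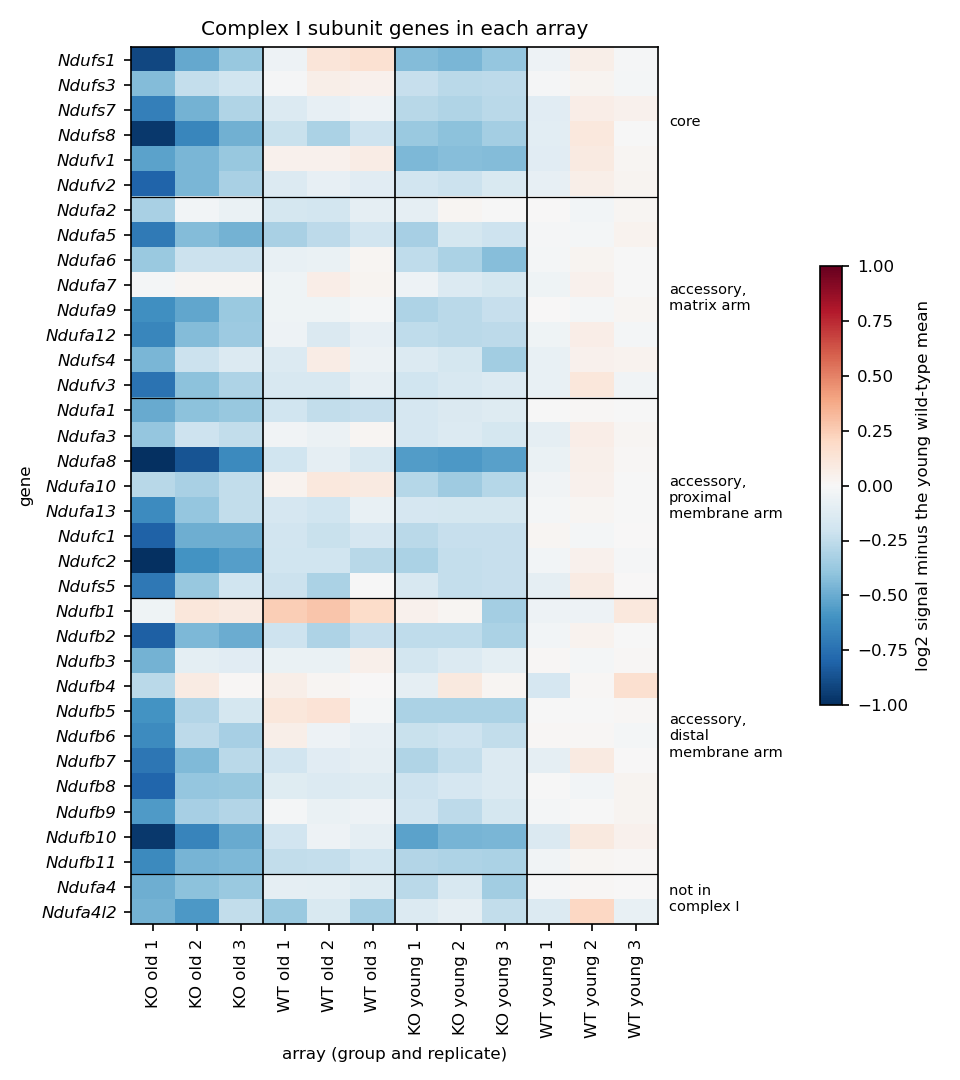
Log2 signal of each of the 35 genes (rows, grouped by place in the complex) on each of the 12 arrays (columns), as the difference from the young wild-type mean of that gene; blue is lower and red higher, on a scale cut at -1 and 1. Both knock-out groups are blue in most rows, and old knock-out 1 is the lowest of all arrays in 30 of the 35 genes.

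The members were lowest in old knock-out muscle and highest in young wild-type muscle. The group mean was lowest in old knock-out muscle for 30 of the 35 genes and highest in young wild-type muscle for 27. In 22 genes the 4 group means ran, from low to high, old knock-out, young knock-out, old wild-type, young wild-type. The mean over the 35 genes of log2 signal minus the young wild-type mean was -0.605, -0.368 and -0.299 in the old knock-out arrays, -0.246, -0.233 and -0.250 in the young knock-out arrays, -0.106, -0.087 and -0.072 in the old wild-type arrays and -0.049, 0.037 and 0.012 in the young wild-type arrays. The groups did not overlap on this mean, and the old knock-out arrays were the most spread. Within old knock-out muscle the median SD of the members was 0.182, against 0.0377 in young knock-out, 0.048 in old wild-type and 0.0404 in young wild-type muscle. Over all genes the median SD was 0.146, 0.11, 0.112 and 0.116 in the same 4 groups. Array 1 was below both other old knock-out arrays in 33 of the 35 genes.

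The genotype comparison in old muscle sets the arrays labelled knock-out against those labelled wild-type at 24 months. Complex I transcripts were lower in old knock-out muscle, by a median of -0.35 on the log2 scale over the 35 genes against -0.02 over all genes tested. Of the 35, 7 passed the test as lower (limma, adjusted p by Benjamini and Hochberg over all 18194 genes, threshold 0.05) and 0 as higher, where 0.852% of all genes were called lower and 0.473% higher. The 3 old knock-out arrays lay below the 3 old wild-type arrays in 29 of the 35 genes, against 13.2% of all genes, and above them in 0 of 35, against 10.6% of all genes. The genes whose arrays overlapped were Ndufa2, Ndufa4l2, Ndufa7, Ndufb4, Ndufs4 and Ndufs5. Values after ± are standard errors from limma.

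Most of the core subunits measured carry the flavin or iron-sulphur clusters. Of these core subunits 2 of 6 fell in old knock-out muscle, and the median of the 6 was -0.43. Ndufv1, which binds FMN and oxidises NADH, had log2 signals of 13.12, 13.20 and 13.28 in old knock-out muscle against 13.70, 13.70 and 13.73 in old wild-type muscle. The groups lay clearly apart, and the difference was -0.51 ± 0.08, or 1.43-fold lower (limma adjusted p = 0.0124). Ndufs1, the largest subunit of the complex and a carrier of iron-sulphur clusters, had 12.47, 12.87 and 13.00 in old knock-out muscle against 13.33, 13.50 and 13.53 in old wild-type muscle. Its old knock-out array 1 was far below the other arrays, all 3 of the group were below the wild-type arrays, and the difference was -0.67 ± 0.12, or 1.59-fold lower (limma adjusted p = 0.0226).

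The other core subunits had differences of similar sign that missed the threshold. Ndufs8 differed by -0.45 ± 0.11 (limma adjusted p = 0.0725) and Ndufs7 by -0.39 ± 0.10 (limma adjusted p = 0.0747), and both carry the clusters that hand electrons on towards ubiquinone. Ndufv2, the partner of Ndufv1 at the NADH site, differed by -0.41 ± 0.11 (limma adjusted p = 0.0832). Ndufs3, which lies between the NADH and the ubiquinone site, differed by -0.32 ± 0.08 (limma adjusted p = 0.0691). In each of the 6 core genes the old knock-out arrays lay below the old wild-type arrays.

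Of the 8 accessory subunits of the matrix arm 1 fell, and their median was -0.25. That gene was Ndufa9, which binds a nucleotide cofactor near the ubiquinone site. Its signals were 13.23, 13.32 and 13.47 in old knock-out muscle against 13.80, 13.80 and 13.82 in old wild-type muscle, a difference of -0.47 ± 0.08 or 1.38-fold lower (limma adjusted p = 0.0178). The wild-type arrays were nearly equal, and each knock-out array was well below them. Ndufa2, an accessory subunit with a thioredoxin-like fold, had the largest positive difference of the 35, 0.01 ± 0.09. Its signals were 13.53, 13.83 and 13.79 in old knock-out muscle against 13.68, 13.67 and 13.77 in old wild-type muscle, so the groups overlapped. Ndufa7 was equally close to 0, at -0.01 ± 0.07.

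The accessory subunits of the proximal membrane arm, the part nearest the matrix arm, fell in 3 of 8 genes, and their median was -0.32. Ndufa8, a small protein on the intermembrane-space side held by disulphide bonds, showed the largest difference of any member. It had 12.19, 12.51 and 12.74 in old knock-out muscle against 13.18, 13.29 and 13.22 in old wild-type muscle, and the difference was -0.75 ± 0.12, or 1.68-fold lower (limma adjusted p = 0.0124). Even its highest knock-out array was far below the lowest wild-type array. Ndufa10, which has a nucleoside kinase-like fold, had 13.33, 13.28 and 13.36 in old knock-out muscle against 13.64, 13.71 and 13.70 in old wild-type muscle. Its difference was -0.36 ± 0.07, or 1.29-fold lower (limma adjusted p = 0.0315), and its knock-out arrays were as tight as its wild-type arrays. Ndufc2, a small membrane subunit, had 13.16, 13.56 and 13.61 in old knock-out muscle against 13.96, 13.96 and 13.88 in old wild-type muscle. Its difference was -0.49 ± 0.11, or 1.4-fold lower (limma adjusted p = 0.0495), with array 1 the lowest by a wide margin.

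Of the 11 accessory subunits of the distal membrane arm 1 fell, and their median was -0.35. Ndufb10, a disulphide-bonded subunit on the intermembrane-space side, had 12.68, 12.98 and 13.14 in old knock-out muscle against 13.45, 13.59 and 13.55 in old wild-type muscle. The groups lay apart, and the difference was -0.60 ± 0.11, or 1.51-fold lower (limma adjusted p = 0.028). Ndufa4 differed by -0.31 ± 0.08 (limma adjusted p = 0.0708) with groups apart, and Ndufa4l2 by -0.14 ± 0.12 (limma adjusted p = 0.526) with groups that overlapped.

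**Figure D2:**
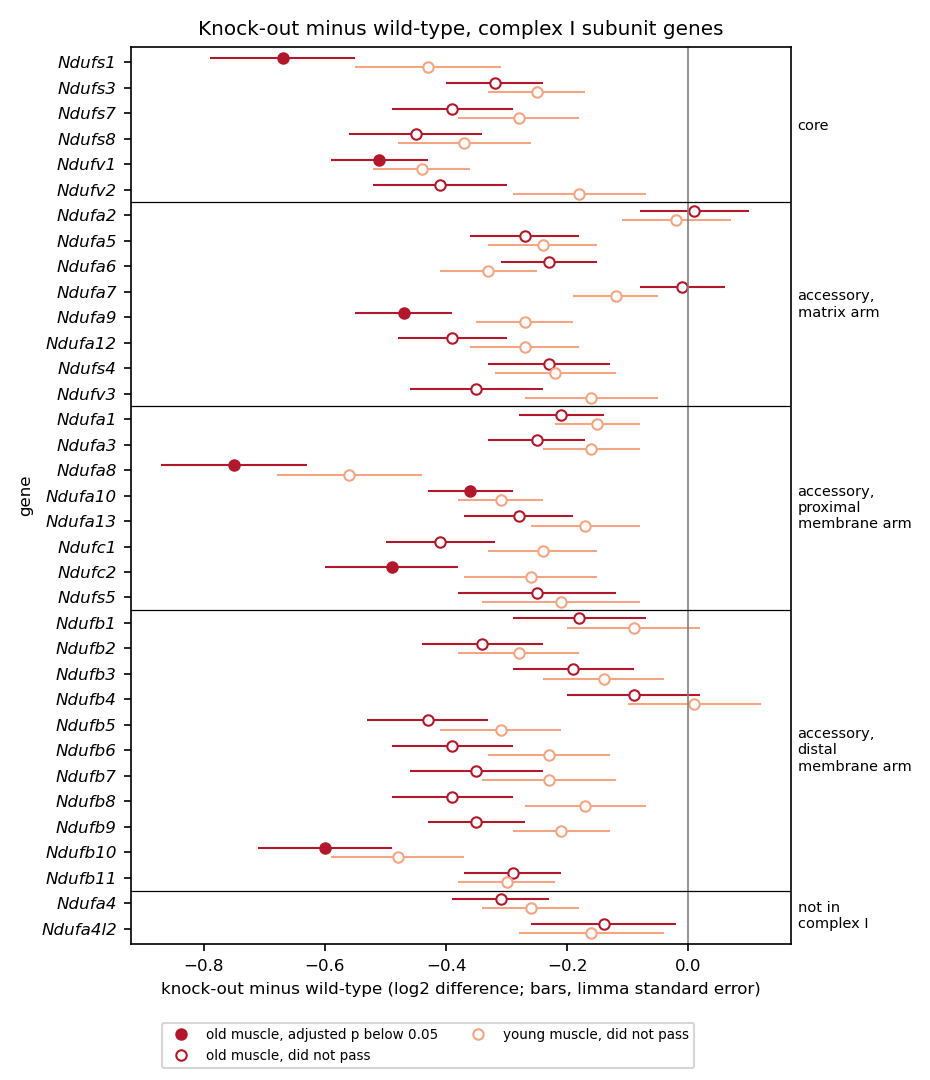
Log2 difference of knock-out minus wild-type muscle for each of the 35 genes, in old (dark red) and young (orange) muscle, with bars for limma's standard error; filled points passed an adjusted p of 0.05 and open points did not. The 7 filled points are all from old muscle, and nearly all points of both ages lie left of 0.

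The count of 7 depends on which arrays are in the fit, and so does the share of all genes called in either direction, which was 1.32% with all arrays. Without old knock-out 1, 4 members were called against 0.83% of all genes. These were Ndufa8 (-0.60, limma adjusted p = 0.0164), Ndufs1 (-0.52, limma adjusted p = 0.0266), Ndufv1 (-0.47, limma adjusted p = 0.0281) and Ndufa9 (-0.41, limma adjusted p = 0.0398). Ndufb10 (-0.47, limma adjusted p = 0.0533), Ndufa10 (-0.36, limma adjusted p = 0.0541) and Ndufc2 (-0.35, limma adjusted p = 0.0628) then missed the threshold. The call of Ndufc2 was lost in 17 of 22 alternatives. The count was 3 against 0.522% of all genes without old knock-out 2, and 17 against 3.54% without old knock-out 3. It was 3 against 0.599% without old wild-type 1, 0 against 0.214% without old wild-type 2 and 0 against 0.154% without old wild-type 3. It was 4 without young knock-out 2, against 0.747% of all genes, and 4 without young wild-type 3, against 0.665%. A fit of the 2 old groups alone called 0 members and 0 genes in all. The median of the members was -0.25 without old knock-out 1. The count of members with groups apart was 29 both with and without that array, against 18.8% of all genes without it.

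Markers of other cells and of slow fibres were read on the same arrays. Of the lists given here, only the macrophage level had groups apart. The 12 adipocyte markers had a summed level of 1.421, 0.839 and -0.774 in the old knock-out arrays against -0.739, -0.843 and -0.229 in the old wild-type arrays, with Adipoq between 8.89 and 13.12 over all 12 arrays and 1 of the 12 genes under the median signal. The 15 macrophage markers, 3 of them under the median signal, lay at 0.594 to 0.927 in old knock-out muscle against -0.218 to 0.569 in old wild-type muscle. Cd68 passed as higher, at 2.17 ± 0.41 (limma adjusted p = 0.0256). Without old knock-out 1 it read 1.71 and missed the threshold (limma adjusted p = 0.06). The 11 fibroblast and matrix markers were at -1.925, -0.601 and -0.227 against -1.243, -0.508 and -0.905. The 9 slow fibre markers lay at 0.461 to 0.865 in old knock-out muscle against -0.122 to 0.507 in old wild-type muscle. That list includes Myh2, a myosin of fast type IIA fibres, whose log2 signal was 15.01 to 15.20 against 15.16 to 15.28. Old knock-out 1 had the highest adipocyte level and the lowest matrix level of all arrays, and the adipocyte level of old knock-out 3 was within the old wild-type range. The part of these markers in the members' differences was not tested. In whole muscle, fewer fibres and less of an mRNA per fibre cannot be told apart.

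In young muscle the same comparison was made at 10 weeks. The median of the 35 genes was -0.24 against -0.01 over all genes tested, and 34 of the 35 lay below 0. Limma called 0 of the 35 in either direction after adjustment, where 0.154% of all genes were called lower and 0.0385% higher. At an unadjusted p under 0.05, 21 of 35 were lower, against 6.3% of all genes. The young knock-out arrays lay below the young wild-type arrays in 31 of 35 genes, against 10.1% of all genes, and above them in 0 of 35, against 10.7% of all genes. Ndufa2, Ndufa4l2, Ndufb1 and Ndufb4 were the exceptions. The old and the young comparisons share no array, and 28 of the 35 genes, 80%, had groups apart and lower in both, against 3.52% of all genes.

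The members with the smallest p in young muscle were largely those called in old muscle. Ndufv1 had 13.21, 13.23 and 13.22 in young knock-out muscle against 13.54, 13.75 and 13.68 in young wild-type muscle, and its difference was -0.44 ± 0.08 (limma adjusted p = 0.056). The 3 knock-out arrays were almost identical and all below wild type. Ndufa8 had 12.82, 12.80 and 12.83 in young knock-out muscle against 13.31, 13.43 and 13.39 in young wild-type muscle, a difference of -0.56 ± 0.12 (limma adjusted p = 0.0812). Its groups lay further apart than those of any other member at this age. Ndufa10 had 13.32, 13.25 and 13.32 against 13.57, 13.65 and 13.60, a difference of -0.31 ± 0.07 (limma adjusted p = 0.122). Ndufb10 had 13.11, 13.18 and 13.19 against 13.50, 13.74 and 13.69, a difference of -0.48 ± 0.11 (limma adjusted p = 0.131). Both had young knock-out arrays below every young wild-type array. Ndufa6, an accessory subunit of the matrix arm of the LYR family, had 13.63, 13.57 and 13.46 against 13.86, 13.91 and 13.88, a difference of -0.33 ± 0.08 (limma adjusted p = 0.14).

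The rest of the core had larger p-values. Ndufs1 differed by -0.43 ± 0.12 (limma adjusted p = 0.214), Ndufs8 by -0.37 ± 0.11 (limma adjusted p = 0.251), Ndufs7 by -0.28 ± 0.10 (limma adjusted p = 0.317), Ndufs3 by -0.25 ± 0.08 (limma adjusted p = 0.272) and Ndufv2 by -0.18 ± 0.11 (limma adjusted p = 0.547). The core median was -0.33, against -0.23 for the accessory subunits of the matrix arm, -0.22 for the proximal and -0.23 for the distal membrane arm. Ndufa4 differed by -0.26 ± 0.08 (limma adjusted p = 0.243) and Ndufa4l2 by -0.16 ± 0.12 (limma adjusted p = 0.625). The largest positive difference was that of the dim Ndufb4 probe set, 0.01 ± 0.11.

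The spread that limma estimates is shared by all 12 arrays, so an old array bears on the young comparison too. Without old knock-out 1 the young comparison called 4 members (Ndufa8, Ndufb10, Ndufs1 and Ndufv1) against 0.951% of all genes in either direction. It called 1 without old knock-out 3, against 0.258% of all genes, and 1 without young wild-type 1, against 0.253%. With array weights 18 of the 35 were called lower in young muscle, against 5.6% of all genes called in either direction. The weight was 0.282 for old knock-out 1. It was 4.73 for young wild-type 3, against 0.701 and 0.634 for young wild-type 1 and 2. The young wild-type mean of that fit thus rested mainly on young wild-type 3. With trended and robust variances 5 members were called lower, against 0.572% of all genes. At this age the adipocyte levels were -0.568 to -0.022 in knock-out against -0.329 to 0.173 in wild-type muscle, and the slow fibre levels 0.146 to 0.281 against -0.123 to 0.227. The 13 lymphocyte markers, 9 of them under the median signal, stood at -0.453 to -0.357 in young knock-out muscle against 0.738, -0.324 and -0.413 in young wild-type muscle. The part of these markers in the members' differences was not tested.

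**Figure D3:**
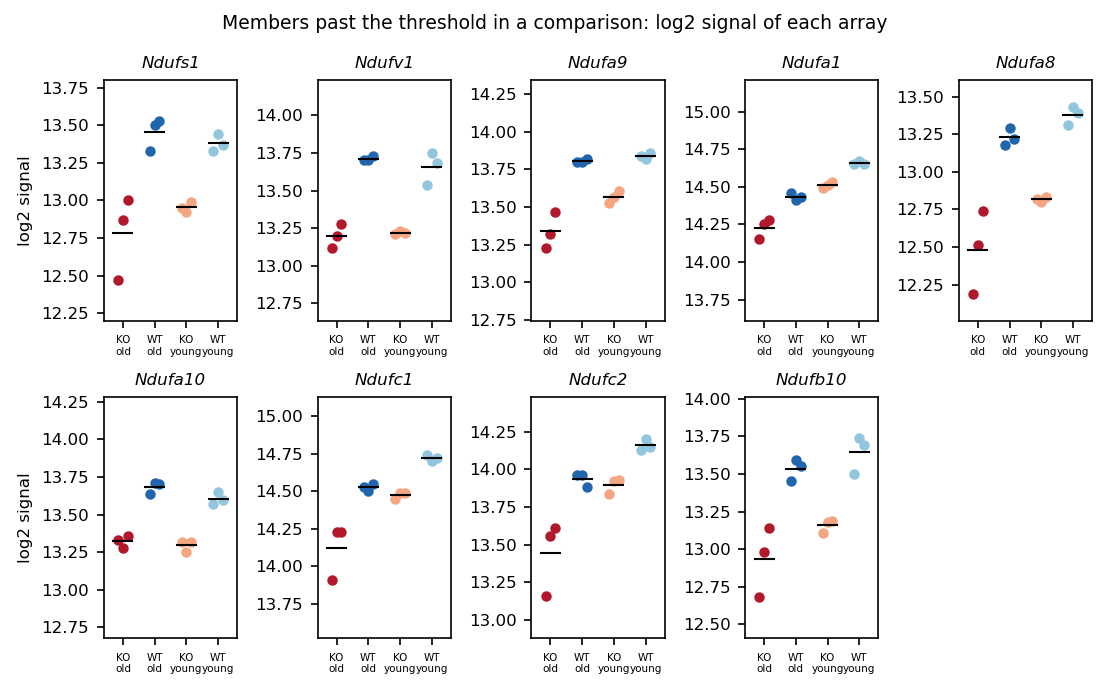
Log2 signal of each array for the 9 genes that passed an adjusted p of 0.05 in at least 1 comparison, with a panel per gene and a line at each group mean; every panel spans the same range of log2 units. In all 9 panels the old knock-out arrays lie below the old wild-type arrays, and old knock-out is the more spread group in most.

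Age was compared within each genotype, 24 months over 10 weeks. In knock-out muscle the members were lower with age by a median of -0.21, against -0.00 over all genes, and 3 of 35 fell, where 5.41% of all genes were called lower. None rose by this test (4.85% of all genes were called higher; limma). The old knock-out arrays lay below the young knock-out arrays in 19 of 35 genes, against 14.9% of all genes, and above them in 1, Ndufa7, against 13.8% of all genes. The share called, 3 of 35, was near that of all genes.

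The 3 genes that fell all encode small subunits of the proximal membrane arm. The median of that arm was -0.27, against -0.19 for the core subunits and -0.19 for the distal membrane arm. It was -0.17 for the accessory subunits of the matrix arm, and no difference between the parts was tested. Ndufc2 had 13.16, 13.56 and 13.61 in old knock-out muscle against 13.84, 13.92 and 13.93 in young knock-out muscle, a difference of -0.46 ± 0.11 or 1.37-fold lower (limma adjusted p = 0.0199). Ndufa1, an X-linked single-pass membrane subunit, had 14.15, 14.25 and 14.28 against 14.49, 14.51 and 14.53, a difference of -0.29 ± 0.07 or 1.22-fold lower (limma adjusted p = 0.026). Ndufc1, which lies beside Ndufc2, had 13.91, 14.23 and 14.23 against 14.45, 14.49 and 14.49, a difference of -0.36 ± 0.09 or 1.28-fold lower (limma adjusted p = 0.0279). In all 3 the old arrays were below the young ones, and old knock-out 1 was the lowest.

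Just short of the threshold were Ndufb8 of the distal membrane arm, at -0.35 ± 0.10 (limma adjusted p = 0.0509), and Ndufa5 of the matrix arm, at -0.30 ± 0.09 (limma adjusted p = 0.0567). Ndufb1, a small distal subunit, had the largest positive difference, 0.15 ± 0.11 (limma adjusted p = 0.451). Ndufa4 differed by -0.16 ± 0.08 (limma adjusted p = 0.21) and Ndufa4l2 by -0.27 ± 0.12 (limma adjusted p = 0.162). The median of the core subunits was -0.19, with Ndufv1 at -0.02 ± 0.08 and Ndufs3 at -0.04 ± 0.08.

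Without old knock-out 1 the median with age in knock-out muscle was -0.11. Ndufc2 was the 1 member called, at -0.32 (limma adjusted p = 0.0294), against 7.34% of all genes called in either direction (10.3% with all arrays). Ndufa1 (-0.25, limma adjusted p = 0.0594) and Ndufc1 (-0.25, limma adjusted p = 0.0544) then missed the threshold. The count was 6 without old knock-out 2, against 9% of all genes, and 10 without old knock-out 3, against 11%. It was 1 without young knock-out 1, against 7.57%, 0 without young knock-out 2, against 5.3%, and 0 without young knock-out 3, against 4.58%. The number of members with groups apart and lower was 19 with and without old knock-out 1, against 19.8% of all genes without it. The adipocyte level was 1.421, 0.839 and -0.774 in old knock-out against -0.404, -0.022 and -0.568 in young knock-out muscle. The matrix level was -1.925, -0.601 and -0.227 against -0.078, 0.025 and 0.851, with groups apart. On the endothelial level, -0.470 to -0.162 against -0.387 to 0.089, the groups overlapped. The slow fibre level was 0.461 to 0.865 in old knock-out against 0.146 to 0.281 in young knock-out muscle, and the macrophage level 0.594 to 0.927 against -0.088 to 0.455, with groups apart on both. Cd68, a macrophage marker, rose by 2.87 ± 0.41 (limma adjusted p = 0.00164) and Casq2, the slow and cardiac calsequestrin, by 0.66 ± 0.14 (limma adjusted p = 0.0147). Both also passed without old knock-out 1, at 2.41 and 0.83 (limma adjusted p = 0.00378 and 0.00305). Of the matrix markers, Col1a1 fell, at -4.09 ± 0.59, as did Sparc, at -1.61 ± 0.24 (limma adjusted p = 0.00194 and 0.00205). Of the endothelial markers, Cdh5 fell, at -0.71 ± 0.13, as did Tie1, at -0.63 ± 0.15 (limma adjusted p = 0.00561 and 0.0195). Each of these also passed without old knock-out 1 (limma adjusted p = 0.00514, 0.00883, 0.00983 and 0.0398). The 18S and the 5′ minus 3′ control levels also differed by age, and the part of these measures was not tested.

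In wild-type muscle the age difference was smaller, with a median of -0.11 against 0.00 over all genes. Limma called 0 of 35 after adjustment, where 1.97% of all genes were called lower and 1.65% higher, and 5 of 35 were lower at an unadjusted p under 0.05, against 8.66% of all genes. With trended and robust variances 2 were called, against 4.08% of all genes in either direction. With array weights 4 were called, against 13.5%, where 3.62% of all genes were called without either. In the weighted fit the young wild-type mean rested mainly on young wild-type 3. The old wild-type arrays lay below the young wild-type arrays in 17 of 35 genes, against 13.5% of all genes, and above them in 1, Ndufb1, against 12.8% of all genes. The matrix markers stood at -1.243, -0.508 and -0.905 in old wild-type against 0.429, -0.234 and -0.195 in young wild-type muscle, and Col1a1 fell, at -2.91 ± 0.59 (limma adjusted p = 0.0214), as did Sparc, at -1.51 ± 0.24 (limma adjusted p = 0.00574). The 12 endothelial markers stood at -0.259 to -0.230 against -0.100 to 0.167, and Cdh5 fell, at -0.76 ± 0.13 (limma adjusted p = 0.00751), as did Tie1, at -0.59 ± 0.15 (limma adjusted p = 0.049). The adipocyte level was -0.739, -0.843 and -0.229 in old wild-type against -0.329, 0.173 and 0.156 in young wild-type muscle. The part of these markers in the members' differences was not tested.

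The smallest p among the members was that of Ndufa1. It had 14.46, 14.41 and 14.43 in old wild-type muscle against 14.65, 14.67 and 14.65 in young wild-type muscle, a difference of -0.22 ± 0.07 (limma adjusted p = 0.118). The arrays of each group agreed within a few hundredths, and the groups lay apart. Ndufb11, an X-linked distal subunit, differed by -0.23 ± 0.08 (limma adjusted p = 0.137), Ndufa5 by -0.26 ± 0.09 (limma adjusted p = 0.15), Ndufb2 by -0.25 ± 0.10 (limma adjusted p = 0.206) and Ndufa4l2 by -0.29 ± 0.12 (limma adjusted p = 0.216). Ndufb1 went the other way. It had 8.66, 8.69 and 8.60 in old wild-type muscle against 8.36, 8.36 and 8.52 in young wild-type muscle, a difference of 0.24 ± 0.11 (limma adjusted p = 0.295, unadjusted p = 0.0477). Ndufa4 differed by -0.11 ± 0.08 (limma adjusted p = 0.537). The 2 age comparisons share no array with each other, but each shares arrays with a genotype comparison.

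**Figure D4:**
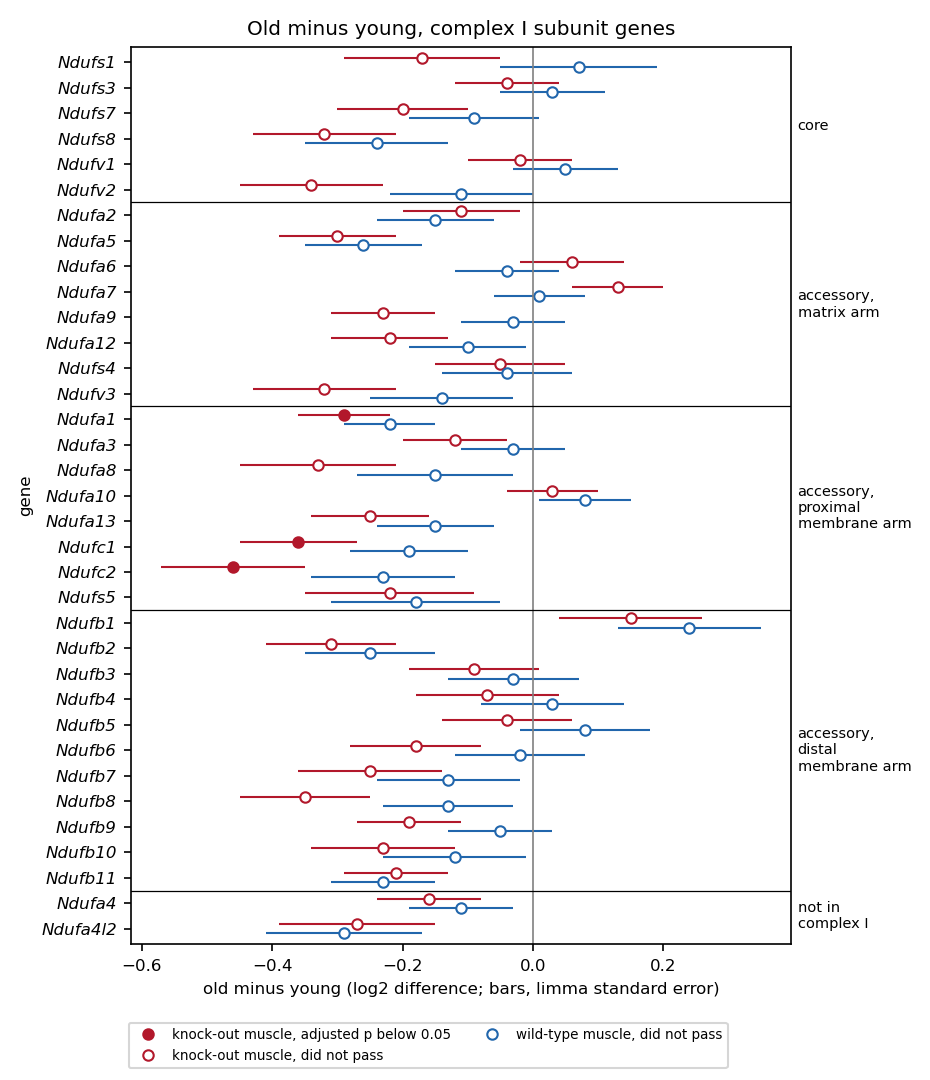
Log2 difference of old minus young muscle for each of the 35 genes, in knock-out (red) and wild-type (blue) muscle, with bars for limma's standard error; filled points passed an adjusted p of 0.05 and open points did not. The 3 filled points, Ndufa1, Ndufc1 and Ndufc2, are from knock-out muscle, and Ndufb1 lies right of 0 in both genotypes.

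Whether the genotype difference differed between ages was tested as an interaction, the genotype difference in old muscle minus that in young muscle. Limma called 0 of the 35 after adjustment, where 0% of all genes were called, and 0 of 35 had an unadjusted p under 0.05, against 5.45% of all genes. The median was -0.09, against -0.01 over all genes. The smallest p-values belonged to Ndufa9, at -0.20 ± 0.11 with a 95% interval from -0.44 to 0.05, Ndufb8, at -0.22 ± 0.14 with an interval from -0.54 to 0.09, and Ndufc2, at -0.23 ± 0.15 with an interval from -0.56 to 0.10. Each interval includes 0, and its lower end is larger in size than the genotype difference of that gene in young muscle. A call in old muscle beside none in young muscle is therefore not a shown difference between the ages. With old knock-out 1 and young wild-type 1 both left out, the median of the interaction was 0.00. It was -0.16 to -0.01 with 1 array left out.

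The same genes were also read by other probe sets. Of 73 probe sets that name a member, 38 were not used above, and 34 of these lay above the median signal. All 34 were lower in young knock-out than in young wild-type muscle (median -0.26, range -0.46 to -0.09). On rounded values, 30 of 34 were lower in old knock-out than in old wild-type muscle (median -0.36, range -0.77 to 0.24). A probe set of Ndufa7 that read -0.00 is not in that count. With age, 27 of 34 were lower in knock-out muscle (median -0.20) and 26 of 34 in wild-type muscle (median -0.12). Where every probe set was tested, the 2 further probe sets of Ndufv1 both read -0.53 in old muscle (limma adjusted p = 0.0185 and 0.0135). The probe sets of Ndufa10 disagreed. Its dimmer probe set, at a mean of 8.79, gave -0.58 ± 0.11 with age in knock-out muscle (limma adjusted p = 0.0078), where the brighter one gave 0.03 ± 0.08. In old muscle the dimmer one read -0.77 ± 0.11 for genotype (limma adjusted p = 0.0117), against -0.36 ± 0.08 on the brighter one. With old knock-out 1 left out, 32 of the 34 probe sets were lower with genotype in old muscle (median -0.26) and 25 with age in knock-out muscle (median -0.12), and the dimmer Ndufa10 probe set read -0.69 for genotype in old muscle (limma adjusted p = 0.0347) and -0.50 with age (limma adjusted p = 0.027). For Ndufs4 a further probe set, at a mean of 10.24, read -0.76 ± 0.19 for genotype in old muscle (limma adjusted p = 0.0882). With age in knock-out muscle it read -0.61 ± 0.19 (limma adjusted p = 0.069). The brightest Ndufs4 probe set read -0.23 ± 0.10 and -0.05 ± 0.10 in these comparisons. For Ndufb8 a probe set close to background, at 6.76, read 0.24 ± 0.13 in old muscle, opposite in sign to the bright one.

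Some subunits were covered only by probe sets that name several genes, and these were tested apart. The probe set for Ndufa11 and its copy Ndufa11b read 12.65, 12.85 and 12.97 in old knock-out muscle against 13.25, 13.34 and 13.27 in old wild-type muscle, a difference of -0.46 ± 0.10 (limma adjusted p = 0.0583). In young muscle it differed by -0.45 ± 0.10. The probe set for Ndufs6 and Ndufs6b differed by -0.35 ± 0.10 with genotype in old muscle (limma adjusted p = 0.12), and it fell with age in knock-out muscle, with a difference of -0.38 ± 0.10 (limma adjusted p = 0.0339), a call lost without old knock-out 1 (-0.27, limma adjusted p = 0.0908). A bright probe set that Ndufb4 shares with Ndufb4b and Ndufb4c, at a mean of 13.85, differed by -0.34 ± 0.10 in old muscle (limma adjusted p = 0.133), unlike the dim probe set of Ndufb4. Which copy gives these signals cannot be told from the arrays. Of the 35 genes, 6 were read with probe sets of the _x_at kind and 3 of the _s_at kind, which can pick up related transcripts.

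Genes of the other respiratory chain complexes fell as well, where 0.852% of all genes were called lower with genotype in old muscle. In old muscle, with genotype, 3 of 8 complex II genes fell (median -0.40; Sdha, the flavoprotein of succinate dehydrogenase, at -0.56 ± 0.09, limma adjusted p = 0.0133). Of the 9 complex III subunits 5 fell (median -0.39; Uqcrfs1, the Rieske protein, at -0.45 ± 0.07, limma adjusted p = 0.0162). Of the 14 complex IV subunits 2 fell (median -0.26; Cox7a1, the muscle and heart isoform, at -1.38 ± 0.14, limma adjusted p = 0.00154), and of the 17 ATP synthase subunits 7 fell (median -0.33; Atp5g1, of the membrane ring, at -0.71 ± 0.10, limma adjusted p = 0.0101). With old knock-out 1 left out, 2 of 8, 2 of 9, 1 of 14 and 1 of 17 were called lower in the same 4 lists, with medians of -0.30, -0.33, -0.22 and -0.27, and Sdha, Uqcrfs1, Cox7a1 and Atp5g1 were among them (limma adjusted p = 0.0304, 0.0372, 0.000809 and 0.014). In the fit without that array 94 of all 18194 genes were called lower. No difference between complex I and these lists was tested.

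The proteins that build complex I were followed in a list of their own. Of the 22 genes in the list of Ndufab1 and assembly factors 2 fell in old muscle, against 0.852% of all genes, and the median was -0.24. Ndufaf6 differed by -0.61 ± 0.12 (limma adjusted p = 0.029) and Dmac2 by -0.75 ± 0.16 (limma adjusted p = 0.0488). In the fit without old knock-out 1 the median was -0.12, Ndufaf6 read -0.46 (limma adjusted p = 0.036) and Dmac2 -0.59 (limma adjusted p = 0.109). In young muscle the median was -0.16, and Aifm1, an intermembrane-space protein needed for the import of some respiratory chain subunits, had the smallest p, at -0.48 ± 0.09 (limma adjusted p = 0.0593). With age, Dmac1 fell in wild-type muscle, with a difference of -0.29 ± 0.07 (limma adjusted p = 0.0488), and in knock-out muscle the smallest p was that of Nubpl, which supplies iron-sulphur clusters to the complex, at 0.33 ± 0.11 (limma adjusted p = 0.0673). In the fit without old knock-out 1, Aifm1 passed as lower in young muscle (limma adjusted p = 0.0133) and Nubpl as higher with age in knock-out muscle, at 0.41 (limma adjusted p = 0.0468).

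**Figure D5:**
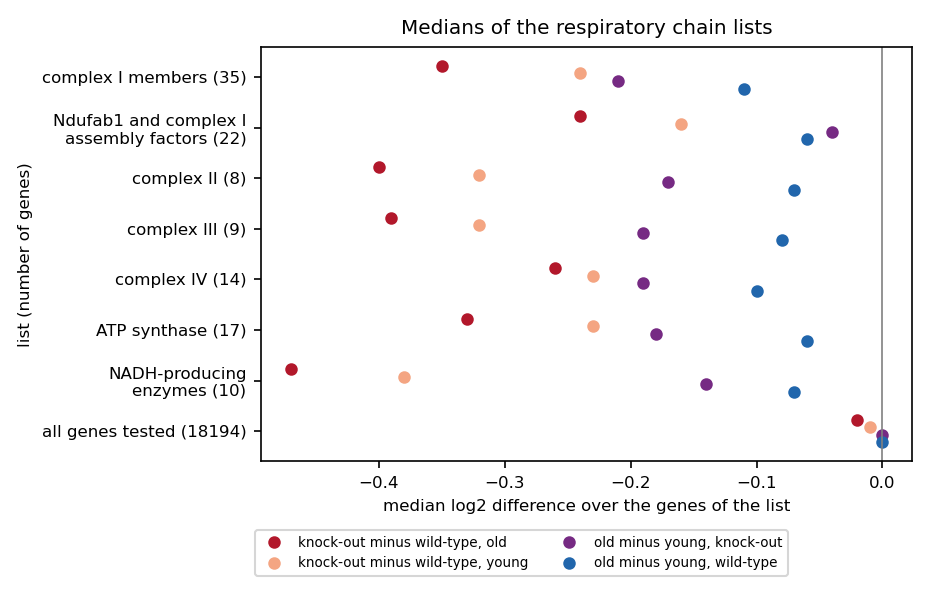
Median log2 difference over the genes of each respiratory chain list (number of genes in brackets) and over all genes tested, for the 4 comparisons. In each list the genotype medians lie further below 0 than the age medians, and the medians over all genes are near 0.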

How the data were processed

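Total RNA of gastrocnemius muscle was measured on Affymetrix mouse arrays, as stated per the labels' protocols. The deposited values are log2 signals, which the authors made with RMA (affy, no version given), per the submitters' processing notes. They were used as deposited. Each array held 45101 probe sets, of which 34958 named 1 gene. Gene names came from the platform's annotation table.

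One model with a mean per group was fitted over the 12 arrays with limma 3.58.1 (R 4.3.3; lmFit, eBayes; 8 residual and 4.15 prior degrees of freedom). Adjusted p-values are Benjamini-Hochberg values over 18194 genes, called at 0.05. Groups are called apart where every array of one lies below every array of the other. The text names members past the threshold, else the 5 smallest p-values, the largest positive difference, the core subunits, Ndufa4 and Ndufa4l2; the interaction names 3, and other lists up to 3 by smallest p. Probe sets outside this rule, such as those naming several genes, were chosen after their values were seen. The fit was tested on simulated data. Shifts of 0.5 on the log2 scale were recovered in 43.3% to 46.3% of shifted genes in the genotype and age comparisons. In the interaction 13.4% were recovered, so a missing call says little about differences of that size. Promoters came from a RefSeq table of GRCm38.p6. The members and lists were chosen with earlier results of these data known. Alternatives covered probe set choice, filtering, scaling, variance, array weights, threshold and arrays left out.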

Additional observations from a re-analysis of the deposited data

How the results depend on the processing

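No paired analysis was possible because the labels name no litter or other link between arrays of different groups. The labels give the arrays no replicate numbers, and those used here follow the order of the samples within a group. The medians of the members over both genotype comparisons and both age comparisons kept their sign under every alternative run, and the number of members called did not hold. The percentages here are the shares of all genes called in either direction under the same setting. In young muscle with genotype (0 called, 0.192%) the count was 1 with probe sets averaged per gene (0.28%), 1 among genes above the median signal (0.572%), 1 after quantile normalization again (0.308%), 5 with trended and robust variances (0.572%), 18 with array weights (5.6%), 2 at an adjusted p of 0.10 (0.654%), 4 with old knock-out 1 and young wild-type 1 both left out (1.19%), and 0 to 4 with 1 array left out (0.0055% to 0.951%). In old muscle with genotype (7 called, 1.32%) it was 17 among genes above the median signal (3.42%), 19 with trended and robust variances (2.14%), 0 in a fit of the 2 groups alone (0%), 20 at an adjusted p of 0.10 (4.4%), and 0 to 17 with 1 array left out (0.154% to 3.54%). The median of -0.35 was -0.25 with both arrays left out and -0.38 to -0.25 with 1 array left out. With age in wild-type muscle (0 called, 3.62%) the count was 2 with trended and robust variances (4.08%) and 4 with array weights (13.5%). With age in knock-out muscle (3 called, 10.3%) it was 7 among genes above the median signal (18.6%), 9 after quantile normalization again (11%), 10 with trended and robust variances (11.4%), 0 in a fit of the 2 groups alone (3.39%), 12 at an adjusted p of 0.10 (16.2%), 1 with both arrays left out (7.37%) and 0 to 10 with 1 array left out (4.58% to 11%). Its median of -0.21 was -0.11 with both left out and -0.28 to -0.11 with 1 left out. The median of the interaction, -0.09, was 0.00 with both left out and -0.16 to -0.01 with 1 left out. Among genes near 0 the sign turned for Ndufb4 in young muscle (-0.08 with array weights, -0.08 with both left out, -0.08 to 0.09 with 1 left out), for Ndufa2 in old muscle (-0.04 to 0.10 with 1 left out) and for the interaction of Ndufb8 (0.11 with the mean of its probe sets, of which one is close to background). Fewer genes tested is part of the setting with genes above the median signal, and the other causes were not tested. The counts with groups apart, and the other lists and further probe sets, without old knock-out 1 were added after seeing the data. Signals near the top of the scale may understate differences, which was not tested.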

Other observations

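Most of the enzymes that supply complex I with NADH fell in old knock-out muscle. Of the 10 NADH-producing enzymes of the tricarboxylic acid cycle and of pyruvate oxidation 9 passed as lower in old muscle, with a median of -0.47 (limma). Over all genes 0.852% were called lower in that comparison. Dlat, the acetyltransferase of pyruvate dehydrogenase, differed by -0.98 ± 0.11 (limma adjusted p = 0.0022), Pdha1 by -0.53 ± 0.08 (limma adjusted p = 0.0111) and Idh3g by -0.45 ± 0.07 (limma adjusted p = 0.0125). In young muscle 1 of 10 passed, against 0.154% of all genes called lower, and the median was -0.38. That gene was Dld, at -0.50 ± 0.08 (limma adjusted p = 0.0341). Of the 23 regulators of mitochondrial biogenesis 3 passed as lower in old muscle, against 0.852% of all genes, with a median of -0.04. They were Esrra, the estrogen-related receptor alpha, at -0.91 ± 0.14 (limma adjusted p = 0.0124), the deacetylase Sirt3 at -0.91 ± 0.18 (limma adjusted p = 0.0358) and Perm1 at -0.93 ± 0.19 (limma adjusted p = 0.0412). Esrra differed by -0.75 ± 0.14 in young muscle (limma adjusted p = 0.0593). Without old knock-out 1, 6 of the 10 enzymes passed as lower in old muscle (median -0.43), Dlat, Pdha1 and Idh3g among them (limma adjusted p = 0.00616, 0.0254 and 0.0266), and 6 in young muscle. Of all 18194 genes, 94 were called lower in old muscle and 126 in young muscle in that fit. Of the regulators 2 then passed in old muscle, Esrra and Sirt3 (limma adjusted p = 0.0266 each), and Perm1 did not, at -0.78 (limma adjusted p = 0.0989).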
